A study of Mus musculus with 6 samples.

Results

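Podocytes are the epithelial cells that wrap the capillaries of the glomerulus, the filter of the kidney. Their foot processes interlock, and the slit diaphragm that bridges them is built on the adhesion protein nephrin and held to an actin skeleton by scaffold proteins inside the cell. Loss of slit diaphragm proteins is known to cause proteinuria. The genes described here are 7 podocyte genes given by symbol, and all 7 were found among the 56923 gene identifiers of the count tables: Nphs1, Podxl, Synpo, Wt1, Plce1, Ptpro and Magi2. All 7 passed the filter on low counts that left 18273 genes. Podocytes do not belong to the tubule cells in which the deletion was induced.

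Messenger RNA was sequenced from 6 whole, snap-frozen kidneys of male mice at 10 weeks of age. The 3 controls had the genotype Pkd1flox/flox.Tet-O-Cre and the 3 Pkd1 KO kidneys had Pkd1flox/flox.Pax8rtTA.Tet-O-Cre, so both groups carried the floxed Pkd1 alleles and the doxycycline-dependent Cre transgene, and the controls lacked the Pax8-driven activator rtTA that turns Cre on. Pkd1 encodes polycystin-1, which is mutated in polycystic kidney disease, and Pax8 is a transcription factor of kidney tubule epithelium. All mice received doxycycline at 2 mg/ml with 5% sucrose in the drinking water from day 28 to day 42 after birth, for 14 days. A kidney holds few glomeruli beside its tubules, and in whole-kidney RNA fewer podocytes and less RNA per podocyte cannot be told apart.

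Libraries held 45020173 to 62983791 gene counts. The names under which the counts were deposited carry a code, read here as the sequencing project, which the sample labels do not give. All 3 controls shared 1 code and all 3 Pkd1 KO libraries another. For every value below, what this code stands for and the genotype cannot be told apart. The labels do not say more of the animals than separate sample numbers, so p-values measure the spread between these samples. Pkd1 stood at 30.01, 46.4 and 23.6 CPM in controls 1, 2 and 3 (CPM are read counts scaled to a common library size) and at 8.77, 9.003 and 10.01 CPM in Pkd1 KO 1, 2 and 3 (log2 fold change −1.85 ± 0.24 SE, adjusted p = 0.00234 in edgeR's quasi-likelihood test). With offsets for GC content and length, described below, it was −0.34 (adjusted p = 0.0643). These counts span the whole gene and not the floxed exons alone. Pax8, whose promoter drives the activator, stood at 47.8, 52.4 and 28.7 CPM in the controls against 70.4, 56.3 and 56.5 CPM in Pkd1 KO (0.51 ± 0.22, adjusted p = 0.0905; 0.87 with the offsets, adjusted p = 0.00656). Libraries are given in that order throughout.

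Across all genes, long and GC-rich transcripts lay lower in Pkd1 KO kidneys, which bears on the podocyte genes because they are long. The median log2 fold change was −0.51 in the longest eighth of genes and 0.65 in the shortest, and −0.60 in the eighth with the highest GC content against 0.56 in that with the lowest. The 7 podocyte genes have 5488 to 15998 exonic bases and lie in the 3 longest eighths. A second fit therefore carried offsets for GC content and exon length. Both fits are given below, and a gene is called where its adjusted p is under 0.05. Such offsets also remove any change in the kidney that itself follows GC content or length.

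Of the 7 podocyte genes, 6 were called lower in Pkd1 KO kidneys and Magi2 was not called. Among all 18273 genes tested, 24.2% were called lower and 46.9% were called in either direction. The median log2 fold change of the 7 genes was −1.09, against 0.026 for all genes. With the offsets, 0 of the 7 were called, against 34.5% of 17785 genes, of which 17.4% were lower and 17.1% higher as shares of the genes tested, and the median of the 7 was −0.46. Control 3 lay with the Pkd1 KO libraries for several of these genes, and the groups did not overlap for 3 of the 7 (Podxl, Synpo and Plce1), while 61.2% of all genes had groups that did not overlap and 30.0% lay lower in every Pkd1 KO library than in every control.

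The sequence upstream of the start is shown for 3 members that were called lower and for Magi2, which was not. The RefSeq table of promoters (build GRCm38.p6, an older build than the GRCm39 of the counts) had entries used here for 4 of the 7 genes. The 250 bases before the annotated start are printed 5′ to 3′ on the plus strand. Capitals mark matches on either strand to 4 short motifs: GTGGGAG, part of the WT1 consensus, TAATTA, a homeodomain core of the LMX1B type, TAAACA, a forkhead core, and the E-box CAGCTG. The windows are chr7:30459808-30460057 for Nphs1, chr6:137252049-137252298 for Ptpro, chr19:38523947-38524196 for Plce1 and chr5:19226796-19227045 for the first of 2 listed starts of Magi2.
Nphs1: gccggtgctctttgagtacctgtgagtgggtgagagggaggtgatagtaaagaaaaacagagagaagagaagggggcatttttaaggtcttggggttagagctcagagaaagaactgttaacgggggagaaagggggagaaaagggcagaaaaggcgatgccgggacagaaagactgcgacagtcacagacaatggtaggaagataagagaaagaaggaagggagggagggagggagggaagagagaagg
Ptpro: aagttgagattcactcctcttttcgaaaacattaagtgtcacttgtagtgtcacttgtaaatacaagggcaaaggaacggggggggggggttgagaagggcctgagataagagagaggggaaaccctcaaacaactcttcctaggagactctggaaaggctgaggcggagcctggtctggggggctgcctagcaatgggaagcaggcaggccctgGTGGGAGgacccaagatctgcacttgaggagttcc
Plce1: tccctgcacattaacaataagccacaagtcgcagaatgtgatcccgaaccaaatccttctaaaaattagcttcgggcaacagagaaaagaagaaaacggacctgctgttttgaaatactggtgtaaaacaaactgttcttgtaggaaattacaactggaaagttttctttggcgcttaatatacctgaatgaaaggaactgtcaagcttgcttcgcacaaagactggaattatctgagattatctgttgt
Magi2: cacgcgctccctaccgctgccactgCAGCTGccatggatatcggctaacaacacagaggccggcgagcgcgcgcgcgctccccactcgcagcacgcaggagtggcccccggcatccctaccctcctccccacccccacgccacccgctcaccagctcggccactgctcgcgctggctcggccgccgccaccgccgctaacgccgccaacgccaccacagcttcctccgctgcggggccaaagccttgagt
Ptpro held GTGGGAG at position −35 from its start, a motif present in 8.25% of 32851 promoter windows of that length. Magi2 held CAGCTG at −225, present in 13% of windows, and the window before its other start (not printed) held TAATTA at −227. Nphs1 and Plce1 held none of the 4 motifs in this window, where TAATTA was present in 4.84% and TAAACA in 12% of all windows. The GC content was 72% before Magi2, 50.8% before Nphs1, 53.6% before Ptpro and 38.8% before Plce1, with a median of 52.4% over all windows. A match is a description of letters and not a bound site.

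Nphs1 (ENSMUSG00000006649, chromosome 7) encodes nephrin, the adhesion protein that spans the slit. It stood at 17.5, 23.9 and 6.10 CPM in the controls, against 5.34, 6.48 and 5.46 CPM in Pkd1 KO. Controls 1 and 2 were far above the rest, and control 3 lay inside the range of the Pkd1 KO libraries. On average nephrin RNA went from 15.8 ± 9.01 to 5.76 ± 0.626 CPM (SD, n = 3 each), and the log2 fold change was −1.46 ± 0.41 (SE, adjusted p = 0.0178). With the offsets the value was −0.46 ± 0.29 (adjusted p = 0.246). Nphs1 shares 597 of its exonic bases (9.02%) with the antisense gene Nphs1os, which had 0 counts in every library, and reads that lie in both are counted for neither when strand is ignored. Summing the columns that count each strand gave −1.53 for Nphs1 (adjusted p = 0.0136).

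Magi2 (ENSMUSG00000040003, chromosome 5) encodes a scaffold protein that binds nephrin from inside the foot process. It stood at 8.22, 13.9 and 5.56 CPM in the controls, against 6.85, 7.61 and 6.87 CPM in Pkd1 KO. The Pkd1 KO libraries lay close together and inside the range of the controls. The log2 fold change was −0.38 ± 0.30 (adjusted p = 0.313), and with the offsets it was 0.49 ± 0.17 (adjusted p = 0.0530). Whether each value was called changed when a single control was left out. The offset value stayed positive without control 2, and also without control 3 (0.36, adjusted p = 0.105). Without control 3 the log2 fold change was −0.69 and called (adjusted p = 0.0244), without control 2 it was 0.0069 (adjusted p = 0.981), and with the offsets and without control 2 it was 0.66 and called higher (adjusted p = 0.00939).

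Podxl (ENSMUSG00000025608, chromosome 6) encodes podocalyxin, the charged sialomucin that coats the foot processes and that endothelium also makes. It stood at 185.9, 217 and 103.9 CPM in the controls, against 84.1, 95.4 and 82.4 CPM in Pkd1 KO. The groups did not overlap, though control 3 was nearer to the Pkd1 KO libraries than to the other controls. The mean went from 169 ± 58.5 to 87.3 ± 7.08 CPM (SD, n = 3 each), with a log2 fold change of −0.95 ± 0.25 (adjusted p = 0.0136). With the offsets it was −0.50 ± 0.19 (adjusted p = 0.0717).

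Synpo (ENSMUSG00000043079, chromosome 18) encodes synaptopodin, an actin-binding protein of the foot process. It stood at 54.6, 66.8 and 31.9 CPM in the controls, against 22.7, 25.3 and 24.1 CPM in Pkd1 KO. All controls lay above all Pkd1 KO libraries. The mean went from 51.1 ± 17.7 to 24.04 ± 1.31 CPM (SD, n = 3 each), with a log2 fold change of −1.09 ± 0.24 (adjusted p = 0.00752). Synpo has the highest GC content of the 7 genes (58.2%) and is in the highest eighth for both GC content and length. With the offsets its value turned to 0.22 ± 0.12 (adjusted p = 0.195).

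Plce1 (ENSMUSG00000024998, chromosome 19) encodes phospholipase C epsilon, a signalling enzyme whose loss causes a hereditary nephrotic syndrome, and Ptpro (ENSMUSG00000030223, chromosome 6) encodes a receptor phosphatase of the podocyte surface. Plce1 stood at 5.42, 8.44 and 3.14 CPM in the controls, against 2.16, 2.44 and 1.66 CPM in Pkd1 KO, and the groups did not overlap. Its log2 fold change was −1.44 ± 0.34 (adjusted p = 0.00969), and −0.62 ± 0.23 with the offsets (adjusted p = 0.0592). A quadratic surface for the offsets, added after seeing the data, left Plce1 as the 1 member called (−0.67, adjusted p = 0.0444). Plce1 is the longest of the 7 genes, with a GC content of 47.7%, the lowest among them.

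Ptpro stood at 12.4, 18.9 and 5.54 CPM in the controls, against 5.03, 6.38 and 4.55 CPM in Pkd1 KO. Control 3 lay between the Pkd1 KO libraries, as for Nphs1. The log2 fold change was −1.21 ± 0.38 (adjusted p = 0.0279), and with the offsets it was −0.74 ± 0.31 (adjusted p = 0.0915), the lowest offset value of the 7 genes.

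Wt1 (ENSMUSG00000016458, chromosome 2) encodes the zinc finger transcription factor that keeps podocyte identity and drives Nphs1. It stood at 11.2, 10.06 and 5.81 CPM in the controls, against 4.41, 6.79 and 4.36 CPM in Pkd1 KO. Pkd1 KO 2 lay above control 3, so the groups overlapped. The log2 fold change was −0.80 ± 0.28 (adjusted p = 0.0425), and −0.12 ± 0.24 with the offsets (adjusted p = 0.730). Upper-quartile scaling, which moved the all-gene median from 0.026 to 0.19 on the log2 scale, ended its call (−0.63, adjusted p = 0.0844).

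**Figure D1:**
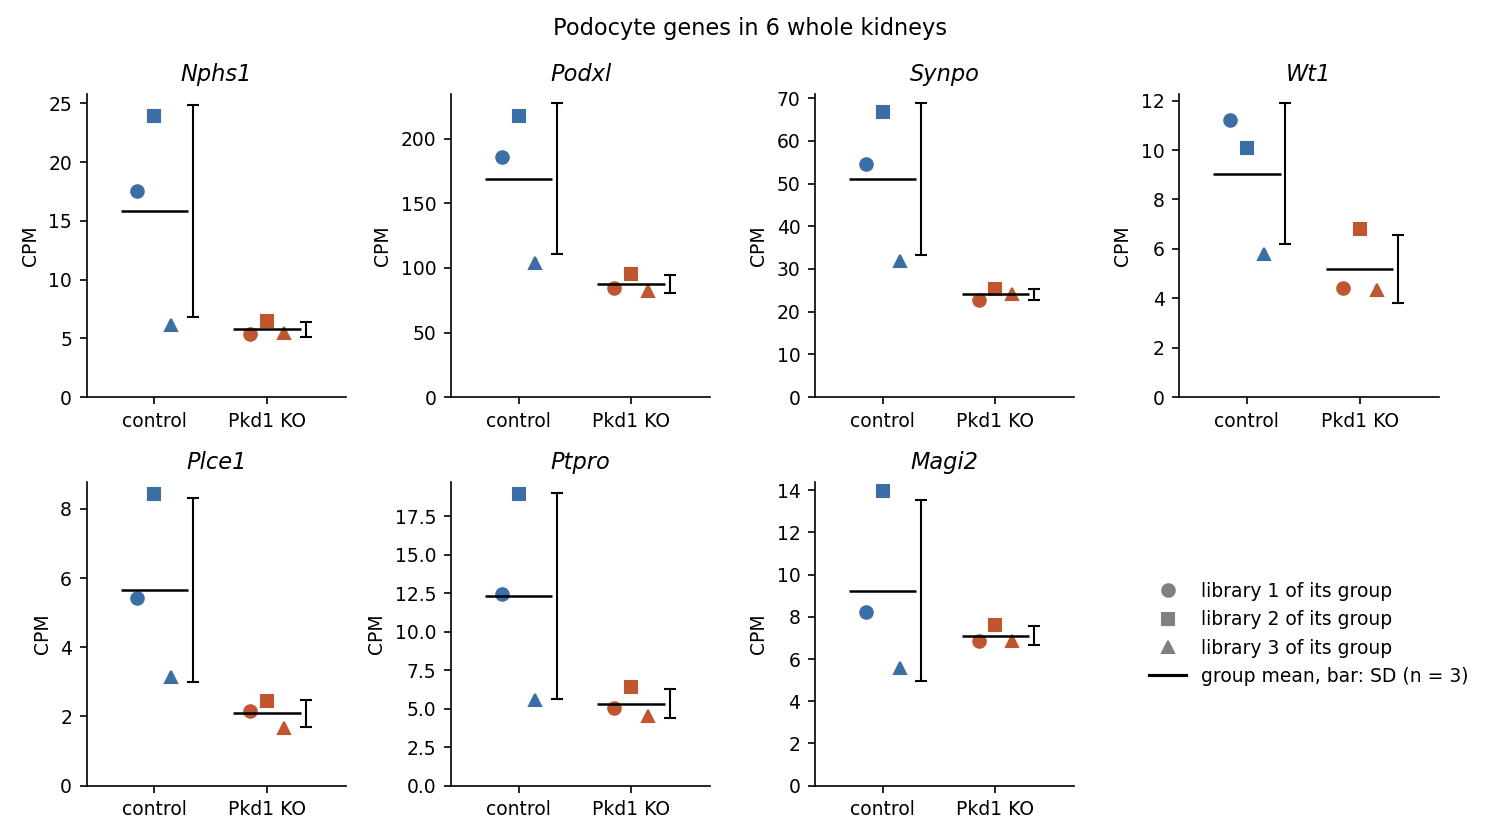
Level of each podocyte gene (vertical axis, CPM, from 0) in the 3 control and 3 Pkd1 KO kidneys; points are libraries, horizontal lines are group means and bars are SD (n = 3). Control 3 (blue triangle) is the lowest control for every gene, and for Nphs1 (6.10 CPM), Ptpro (5.54 CPM) and Wt1 (5.81 CPM) it lies within the range of the Pkd1 KO libraries.

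The number of members called changed with the libraries kept, and so did the share called over all genes. Leaving out a single library gave 2 members called lower without control 1, Pkd1 KO 1 or Pkd1 KO 3, 4 without Pkd1 KO 2, 6 without control 2 and 7 without control 3. The share of all genes called lower, 24.2% with all 6 libraries, was 18.3% without control 1, 24.5% without control 2 and 28.8% without control 3. It was 17.2%, 14.6% and 16.5% without Pkd1 KO 1, 2 and 3. Synpo and Plce1 were called lower with any library left out (highest adjusted p 0.0357 and 0.0405), and Nphs1 and Ptpro lost the call in 4 of these 6 fits, those without control 1 or any 1 of the Pkd1 KO libraries (0.0543 to 0.0673 for Nphs1 and 0.0600 to 0.0901 for Ptpro). Podxl (0.0522 to 0.0540) and Wt1 (0.136 to 0.1405) lost it without control 1, Pkd1 KO 1 or Pkd1 KO 3. The log2 fold changes ranged from −1.89 to −1.08 for Nphs1 and from −1.61 to −0.80 for Ptpro, the smallest sizes being those without control 2. With the offsets and without control 3, 4 members were called lower (20.4% of all genes were). With the offsets and without control 2, 0 members were called lower (17.2% of all genes were).

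**Figure D2:**
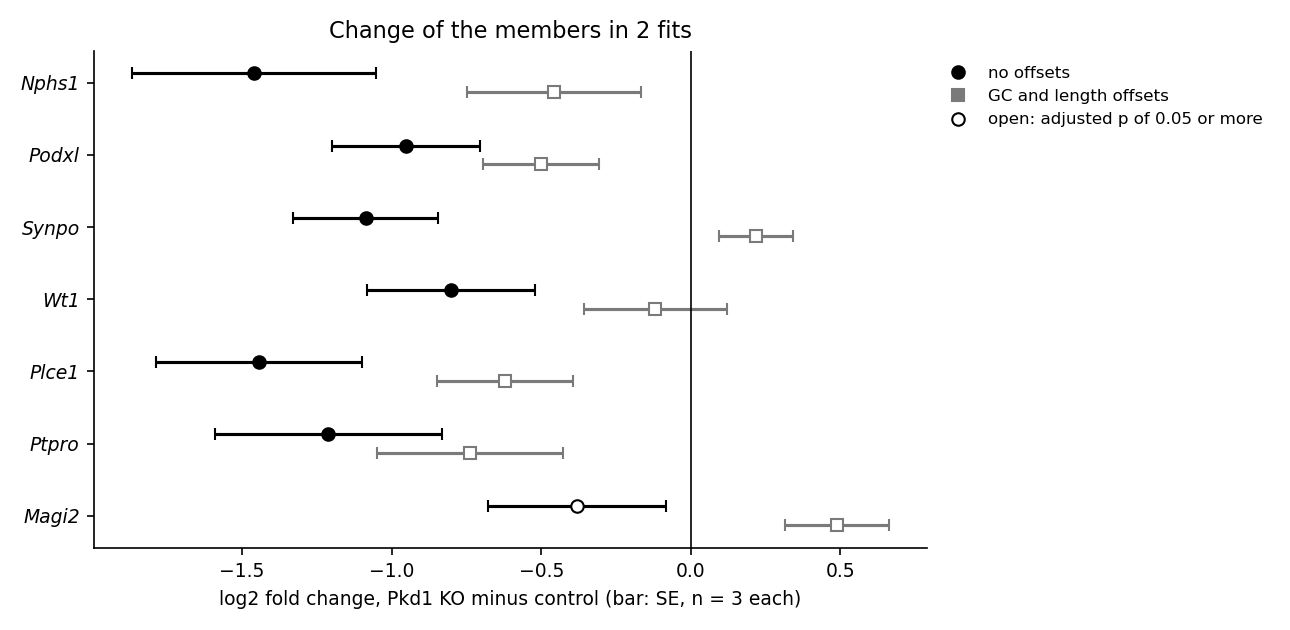
Log2 fold change, Pkd1 KO minus control (horizontal axis; bars are SE, n = 3 each), of the 7 genes without offsets (circles) and with offsets for GC content and length (squares); filled symbols are called. Without offsets 6 of the 7 genes are called lower, and with them 0 are.

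The mean of the members set controls 1 and 2 apart from the other 4 libraries. Relative to each gene's mean log2 CPM over the 6 libraries, the mean of the 7 genes was 0.65, 1.05 and −0.29 in controls 1, 2 and 3, against −0.54, −0.27 and −0.60 in Pkd1 KO. The controls thus spread over a wider range than that from control 3 to the lowest Pkd1 KO library. The longest eighth of all genes had medians of 0.20, 0.51 and −0.0094 in the controls, against −0.26, −0.21 and −0.23 in Pkd1 KO, on the same scale. For the eighth with the highest GC content they were 0.34, 0.41 and 0.14 in the controls, against −0.25, −0.37 and −0.25 in Pkd1 KO. After the GC and length surface was taken off, the mean of the 7 genes was 0.29, 0.37 and −0.36 in the controls, against −0.15, 0.12 and −0.27 in Pkd1 KO, with control 3 the lowest of all 6. What made control 3 low was not tested.

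**Figure D3:**
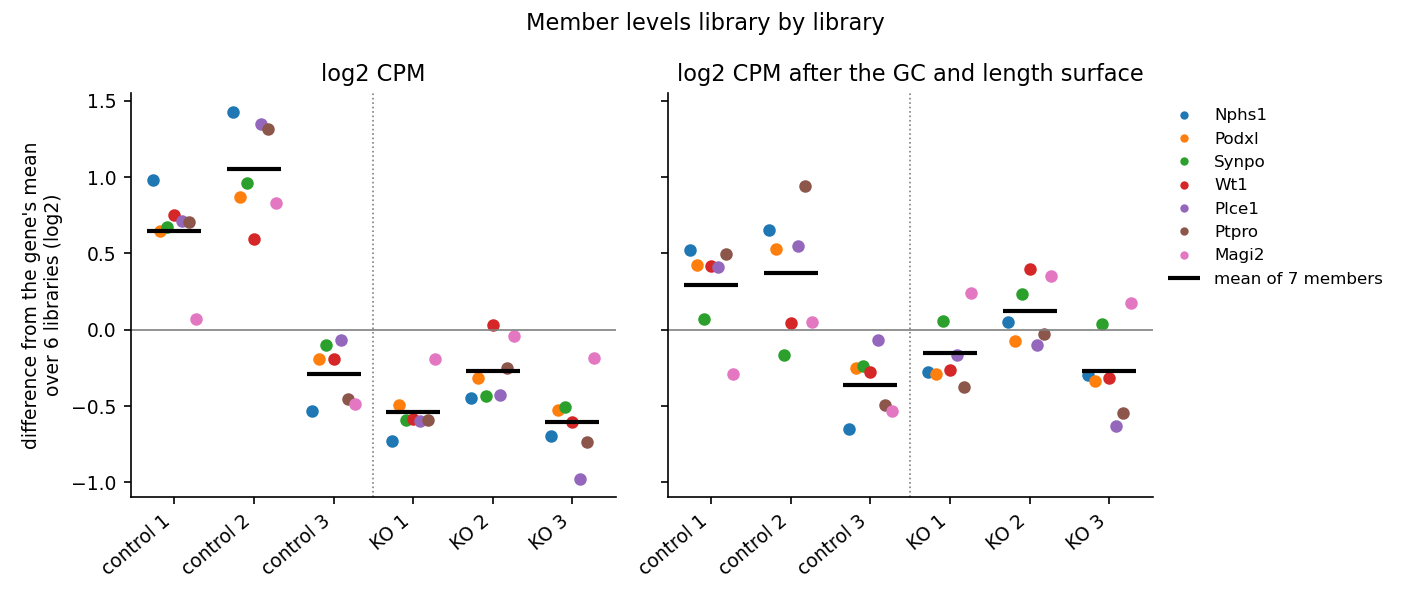
Each podocyte gene's log2 CPM minus its own mean over 6 libraries (vertical axis, log2) in each library, before (left) and after (right) removal of the trend on GC content and length; black bars are the mean of the 7 genes. The means of controls 1 and 2 stand above those of the other 4 libraries on the left (0.65 and 1.05), and on the right control 3 has the lowest mean (−0.36).

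Magi2 departed most from the other members. Set against the mean of the 7 genes in the same library, it was −0.58, −0.22 and −0.20 in the controls, against 0.35, 0.23 and 0.42 in Pkd1 KO, and the groups did not overlap. Plce1 moved the other way, with 0.064, 0.30 and 0.22 in the controls, against −0.058, −0.16 and −0.37 in Pkd1 KO. Such ratios within a library do not depend on its scaling, and no test was made of them. Podxl followed the mean of the 7 genes most closely, with a root mean square difference of 0.093 on the log2 scale over the 6 libraries, and Magi2 least, with 0.36.

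Per kilobase of exon, podocalyxin RNA was the most abundant. Podxl had 30.8 ± 10.7 CPM per kb in controls and 15.9 ± 1.29 in Pkd1 KO kidneys (SD, n = 3 each). Synpo followed with 5.36 ± 1.86 and 2.52 ± 0.137. Among the controls Podxl lay above Synpo in every library, while the lowest Synpo value (3.35) was below the highest of Nphs1 (3.61). Nphs1 (2.39 ± 1.36), Ptpro (1.83 ± 0.996), Wt1 (1.46 ± 0.460) and Magi2 (0.814 ± 0.377 CPM per kb) came next in the controls, and the ranges of neighbours overlapped. Plce1 was the lowest on average, though its highest control (0.528) was above the lowest of Magi2 (0.490), with 0.354 ± 0.166 CPM per kb in controls and 0.131 ± 0.0249 in Pkd1 KO kidneys. In the Pkd1 KO kidneys Nphs1, Wt1, Ptpro and Magi2 lay within 0.870 to 0.626 CPM per kb on average. The counts behind the lowest gene, Plce1, were 105 to 488 reads per library.

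The 5 genes whose profile over the 6 libraries was most like the mean of the 7 members were on none of the podocyte lists. Among 11083 protein-coding candidates they were Hnrnpu, a nuclear RNA-binding protein, Tbc1d5, a regulator of endosome traffic, Eif5b, a translation initiation factor, Ncoa1, a nuclear receptor coactivator, and Palld, an actin scaffold. Their root mean square differences were 0.088 to 0.105 on the log2 scale, against 0.093 for Podxl itself. Podxl is part of that mean and the 5 were picked for the smallest differences, so the values are not on equal terms. Hnrnpu went from 235 ± 93.9 to 117 ± 15.2 CPM (log2 fold change −1.01 ± 0.27, adjusted p = 0.0162). Leaving out Pkd1 KO 1 or Pkd1 KO 3 ended the Hnrnpu call (adjusted p = 0.0662 and 0.0568). All 5 are long, with 8576 to 13334 exonic bases. With the offsets Hnrnpu (−0.98, adjusted p = 0.00938), Eif5b (−0.94, adjusted p = 0.0130) and Ncoa1 (−0.56, adjusted p = 0.0309) were still called lower, and Tbc1d5 (−0.12) and Palld (−0.23) were not.

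A wider podocyte list put the members in context. It had 57 entries, of which 56 matched an identifier and 55 were tested: 32 were called lower, 4 higher and 19 not called, with a median log2 fold change of −0.83. With the offsets 15 were lower and 5 higher, with a median of −0.17. Over all genes tested, 24.2% were lower and 22.7% higher without offsets, and 17.4% and 17.1% with them. The counts by role that follow stand beside these same shares. Across the members and this list together, 62 genes, 13 were lower in both fits, 3 were higher in both and Agrn had opposite calls. The share of all genes called in both fits was not counted, so these numbers have no background to be read against. The genes named from the wider list follow a rule of size, except Kirrel, Tcf21, Pdpn, Agrn, Col4a5, Nck1 and Cd151, which were chosen after their values were seen.

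Of 13 tested genes of the slit diaphragm and its adaptors, 5 were lower and 1, the adaptor Nck1, was higher (0.93 ± 0.18, offset fit 0.32, adjusted p = 0.0662). With the offsets 2 were lower and 0 higher, where 17.4% of all genes were lower and 17.1% higher. The giant cadherin Fat1 fell (−1.66 ± 0.53), as did the polarity protein Crb2 (−1.46 ± 0.50) and the scaffold Magi1 (−1.31 ± 0.33), and none of these 3 was called with the offsets. Control 2 held most of the Fat1 signal, at 119.4 CPM beside 37.7 and 21.5 CPM in controls 1 and 3, and without it the value was −0.69. The Fat1 call was lost in DESeq2 (adjusted p = 0.0513) and when any 1 of the Pkd1 KO libraries was left out (0.0739 to 0.1101). That of Crb2 was lost with upper-quartile scaling (adjusted p = 0.0559), with both strand columns summed (−1.17, adjusted p = 0.0548), with the replicate block (adjusted p = 0.0716) and when any library but control 3 was left out (0.0759 to 0.119), with a value of −0.82 without control 2. Magi1 moved to −0.84 without control 2 and was not called without Pkd1 KO 1 (adjusted p = 0.0525). Kirrel, a nephrin-related adhesion protein, fell in both fits (−1.21 ± 0.22, offset fit −0.47, adjusted p = 0.0339), and its offset call was lost without control 2 (−0.43, adjusted p = 0.0566).

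Among 7 podocyte transcription factors, 5 were lower and 0 higher, and with the offsets 2 were lower and 0 higher. Lmx1b, the homeodomain factor mutated in nail-patella syndrome, went from 2.00, 3.42 and 1.08 CPM in controls 1, 2 and 3 to 0.364, 0.377 and 0.474 CPM in the Pkd1 KO libraries. It was low, with 18 to 198 counts, and the groups did not overlap. Its log2 fold change was −2.42 ± 0.43 (adjusted p = 0.00349), and −1.53 ± 0.33 with the offsets (adjusted p = 0.00849). The forkhead genes Foxd1 (−1.49 ± 0.41, offset fit −0.87, adjusted p = 0.0773) and Foxc2 (−1.18 ± 0.23, offset fit −0.47, adjusted p = 0.0693) fell without the offsets. Foxd1 moved to −0.99 without control 2, and its call ended without Pkd1 KO 1 or Pkd1 KO 2 (adjusted p = 0.0631 and 0.0607). Tcf21, a basic helix-loop-helix factor, was not lower: its mean was 26.4 CPM in controls, against 31.9 CPM in Pkd1 KO (0.27 ± 0.14, adjusted p = 0.145), and with upper-quartile scaling it was called higher (0.43, adjusted p = 0.0446).

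All 10 genes of the actin skeleton and foot process were called without offsets, 8 lower and 2 higher, and with them 4 were lower and 2 higher, with the median going from −0.98 to −0.38. The intermediate filament Nes fell in both fits (−1.95 ± 0.47, offset fit −1.02), and the myosin Myh9 fell without the offsets (−1.53 ± 0.38, offset fit −0.041, adjusted p = 0.873). The value of Myh9 was −0.98 without control 2, and it was not called without Pkd1 KO 1 (adjusted p = 0.0511). Without control 2, Nes was −1.34, and with the offsets as well −0.57 and not called (adjusted p = 0.114). The 2 that rose were Anln (2.35 ± 0.25, offset fit 2.56), an actin-binding protein that is also a gene of cell division, and Pdpn (1.41 ± 0.23, offset fit 0.95), podoplanin, which lymphatic endothelium and activated stroma express too. Of 5 podocalyxin partners 4 were lower, and 2 with the offsets, among them the linkers Ezr (−0.91 ± 0.20, offset fit −0.78) and Slc9a3r1 (−0.95 ± 0.17, offset fit −0.77), which tubules also express, and Rhpn1 (−0.95 ± 0.19, offset fit −0.059, adjusted p = 0.752).

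Of 12 podocyte-enriched transcripts, 4 were lower and 8 not called, and with the offsets 3 were lower. Sema3g, a semaphorin of podocytes and arteries, went from 47.3, 75.3 and 21.5 CPM in controls 1, 2 and 3 to 9.64, 9.92 and 9.83 CPM in the Pkd1 KO libraries. All Pkd1 KO libraries lay far below all controls (−2.29 ± 0.38, adjusted p = 0.00301, offset fit −1.60). The protease Htra1 fell in both fits (−0.93 ± 0.13, offset fit −0.63), and Mapt fell without the offsets (−0.62 ± 0.16, offset fit 0.081, adjusted p = 0.648), a call lost when control 1 or any 1 of the Pkd1 KO libraries was left out (0.0501 to 0.0716). Of 8 genes of the glomerular basement membrane and its integrin, 6 were lower and 1, the tetraspanin Cd151, higher (0.65 ± 0.17, offset fit 0.78). With the offsets 2 were lower and 3 higher (Col4a5, Agrn and Cd151), and the median went from −1.19 to −0.02. Cd151 was not called without offsets when control 1 or any 1 of the Pkd1 KO libraries was left out (adjusted p 0.0503 to 0.0627). Col4a5, a collagen chain of the same network as Col4a3, was −0.098 without offsets (adjusted p = 0.608) and 0.42 with them (adjusted p = 0.0406). The laminin chain Lamb2 (−1.69 ± 0.25, offset fit −0.61) and the collagen chain Col4a3 (−1.35 ± 0.32, offset fit −0.57) fell in both fits. The laminin chain Lama5 fell only without the offsets (−1.38 ± 0.40, offset fit 0.24, adjusted p = 0.381), and Agrn, agrin, was called lower without them (−0.75 ± 0.26) and higher with them (0.43 ± 0.13, adjusted p = 0.0323). The offset call of Col4a3 was lost without control 2 (−0.29, adjusted p = 0.0602). Without control 2 the values without offsets were −0.87 for Col4a3, −0.68 for Lama5 and −0.41 for Agrn. The Lama5 call was lost without Pkd1 KO 1 or Pkd1 KO 2 (adjusted p = 0.0792 and 0.0739), and the lower call of Agrn with upper-quartile scaling (adjusted p = 0.0834) and when control 1 or any 1 of the Pkd1 KO libraries was left out (0.0596 to 0.137).

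Across the 62 genes, those richer in GC lay lower. Spearman's rho of the log2 fold change was −0.55 with GC content and −0.17 with exon length, a description across genes that share the same 6 libraries. In the 31 genes with the higher GC content 27 were called lower, with a median of −1.09, and in the 31 with the lower GC content 11 were, with a median of −0.34. With the offsets the medians were −0.28 and −0.058. Split by exon length instead, 18 of the 31 longer genes were called lower, with a median of −1.01. Of the 31 shorter genes 20 were, with a median of −0.83. Among all genes tested, 24.2% were called lower without offsets. The share called lower among all genes of like GC content or length was not counted.

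**Figure D4:**
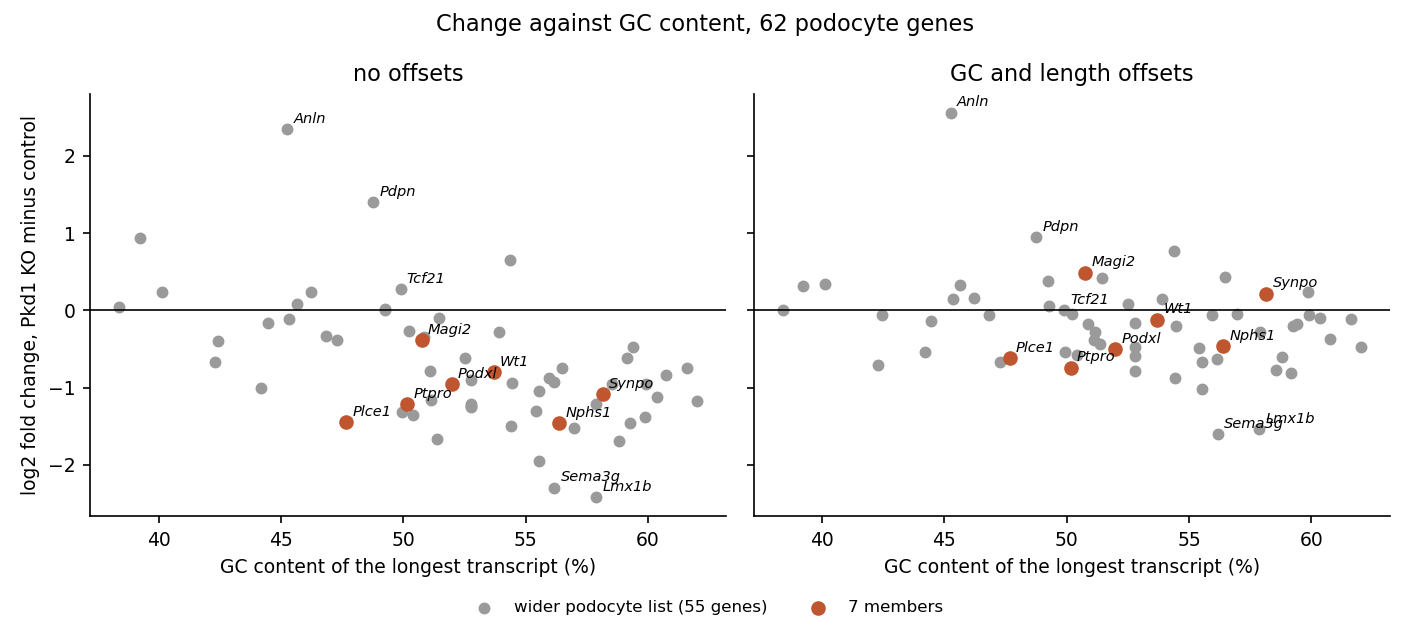
Log2 fold change, Pkd1 KO minus control (vertical axis), against the GC content of the longest transcript (horizontal axis, percent) for the 7 genes (orange) and 55 further podocyte genes (grey), without offsets (left) and with them (right). On the left the GC-rich genes lie lower (Spearman's rho −0.55), and on the right Lmx1b (−1.53) and Sema3g (−1.60) stand below the rest.

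Markers of neighbouring cells moved as well. Without offsets, where 24.2% of all genes were lower and 22.7% higher, 8 of 10 markers of glomerular and other endothelium were lower and 1 higher, and their summed level was 742 to 799 CPM in controls and 498 to 507 CPM in Pkd1 KO kidneys. Of mesangial and pericyte markers 3 of 7 were lower (127 to 185 against 107 to 119 CPM), and of parietal epithelial markers 1 of 4 was lower and 1 higher (45.2 to 91.8 against 47.2 to 60.03 CPM). Proximal tubule markers were lower in 5 of 7 cases and higher in 1 (5574 to 11658 against 3772 to 4312 CPM), and those of the loop, distal tubule and collecting duct in 8 of 8 (4546 to 5745 against 2015 to 2492 CPM). Macrophage markers were higher in 6 of 9 cases and lower in 1, Csf1r (119.7 to 158 against 212 to 343 CPM). Lyz2 made up most of that rise in the sum, with means of 23.1 and 150.3 CPM, and the other 8, summed after seeing these values, came to 107 to 132 CPM in controls and 114 to 155 CPM in Pkd1 KO, which overlapped. Csf1r went from 51.5 to 25.6 CPM. Fibroblast markers were higher in 3 and lower in 2 of 6 (202 to 242 against 203 to 295 CPM), and 0 of 3 tested mesothelial markers were called (9.53 to 17.7 against 9.76 to 24.3 CPM), with Lrrn4 at 1 count in control 1 and at 0 in the other libraries. With the offsets, where 17.4% of all genes were lower and 17.1% higher, the counts were 3 lower and 0 higher for endothelium, 4 and 1 for mesangial cells and pericytes, 1 and 0 for parietal cells, and 5 and 0 for the proximal tubule. They were 7 lower and 0 higher for the distal segments, 1 and 5 for macrophages, 0 and 3 for fibroblasts and 0 and 0 for mesothelium. The summed level of the 7 podocyte genes was 162 to 359 CPM in controls and 129 to 150.5 CPM in Pkd1 KO kidneys. The part of these other cells in the values of the podocyte genes was not tested.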

How the data were processed

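The authors deposited raw read counts per gene for 6 kidneys, in 7 tables with no normalization. Per the submitters' processing notes, cutadapt 4.0, FastQC 0.11.8 and STAR 2.6.1e were used with build GRCm39; no source used here names the gene annotation. The column that ignores strand was used, because the first strand column held 49.1% to 50.0% of stranded reads. Overlapping genes on opposite strands are therefore not separated. The 4 lines that name no gene (22.9% to 26.3% of reads) stayed out of library sizes. The 2 runs of control 1 (chi-square 3.59 per gene, against 26.1 to 257 between libraries of a group) were summed as 1 replicate.

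Symbols, exon lengths and GC content came from GENCODE M21, joined by identifier (52073 of 56923 matched). Pkd1 KO was tested against control with edgeR 4.0.16 in R 4.3.3 (filterByExpr, TMM, quasi-likelihood test, Benjamini-Hochberg over all genes tested). CPM use the TMM library size, and SE is the log2 fold change divided by the root of F. The offsets were a loess surface (robust, linear, span 0.3) of each library's centred log2 CPM (prior count 2) on GC content and log2 exon length, for 17785 genes. Scripts were tested on simulated data. The 7 members, the lists and the alternatives were chosen with earlier results of these data known. From the wider list the rule named, in each role, up to 3 called genes with the largest change, leaving out those whose average log2 CPM was under 0. It also named Pkd1, Pax8 and the 5 genes nearest to the members' mean profile among protein-coding genes averaging a log2 CPM of 2 or more.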

Additional observations from a re-analysis of the deposited data

How the results depend on the processing

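The 6 members called lower stayed at 6 in DESeq2 1.42.0, without the filter on low counts, with both strand columns summed, with the deeper run of control 1 alone and with the sample number as a replicate block, and were 5 with upper-quartile scaling. Of all genes tested, 26.5%, 13.2%, 24.5%, 24.1%, 20.9% and 18.9% were called lower in these settings, in the same order. The count of members called lower ended at 0 with the GC and length offsets, 2 with the offsets and the replicate block, 1 with a quadratic surface, 0 with the offsets without control 2 (where 1 member was higher) and 4 with the offsets without control 3; the last 3 were added after seeing the data. It ranged from 2 to 7 with a library left out, where 14.6% to 28.8% of all genes were called lower. In the settings with offsets, in the order above, 17.4%, 15.1%, 19.5%, 17.2% and 20.4% of all genes were called lower. The counts of the wider list below stand beside these same shares. Calls over all genes numbered 5401 with the offsets and the block and 5071 to 10318 with a library left out. Of the wider list, 15 were lower with the offsets, 14 with the block added, 17 with the quadratic surface, 10 without control 2 and 21 without control 3, and 21 to 39 with a library left out; increases numbered 3 to 6 in every setting. The higher share of calls was 60.5% with upper-quartile scaling, against 48.4%.

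Values of called genes that turned sign under the offsets, the offsets with the block, the quadratic surface, and the offsets without control 2 and without control 3 were, in that order, 0.22, 0.22, 0.050, 0.19 and 0.18 for Synpo, 0.081, 0.082, 0.061, 0.022 and 0.053 for Mapt, and 0.43, 0.43, 0.33, 0.51 and 0.43 for Agrn. Lama5 turned to 0.24, 0.28, 0.49 and 0.23, with no turn under the quadratic surface. Magi2, not called without offsets, turned to 0.49, 0.51, 0.45, 0.66 and 0.36, and was called higher only without control 2. Col4a5, not called either, turned to 0.42 with the offsets, 0.40 with the quadratic surface and 0.49 without control 3, each called higher. Without control 2 the offset values were 0.12 for Fat1, 0.22 for Crb2 and 0.12 for Myh9. The cause was not tested.

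Same-numbered libraries of the groups did not deviate together (correlations of 0.038, −0.084 and −0.029 for numbers 1, 2 and 3). The labels do not say whether same-numbered kidneys share more than a number. The replicate block gave 7397 calls against 8579, and 6 members lower. With 3 kidneys a group, the precision of every value is limited; the parts of counting error and of the spread between kidneys were not separated.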

Other observations

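Kirrel2, a neighbour and relative of Nphs1, was at the edge of detection, with 6, 4 and 0 counts in the controls, against 1, 2 and 2 in Pkd1 KO, and was not tested. Within the Pkd1 KO group, library 2 had the highest level of all 7 members, and among them Wt1 differed most, with 6.79 CPM there against 4.41 and 4.36 CPM in the others (a highest to lowest ratio of 1.56, against 1.11 for Magi2 and 1.12 for Synpo). Among the controls that ratio was 3.92 for Nphs1, 3.42 for Ptpro and 1.93 for Wt1, but 1.25 for Tcf21.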
